A study of Saccharomyces cerevisiae with 6 samples.

Results

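The 2 ends of one chromosome were compared in Hi-C maps of budding yeast for how often they met in the nucleus. For each nuclear chromosome except III, every 10 kb bin within 50 kb of the left end was paired with every bin within 50 kb of the right end. This gave 420 bin pairs on 15 of the 16 chromosomes, and 322 remained once bins with no value were left out, of 53256 pairs within chromosomes and 713415 pairs of nuclear bins in all. The comparison was with the 9356 pairs of the same left-end bins with end bins of other chromosomes, the ends of III included. Below, the left and right ends of a chromosome are written with L and R, so that the own right end of IL is IR.

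Hi-C fixes chromatin with formaldehyde, cuts it with DpnII (at GATC) and counts ligated fragments as contacts. Both maps come from yMD291, a MATa strain grown without methionine, and are labelled as replicates 1 and 2. Its genotype holds the marker alleles his3-11,15 and a mutant allele of leu2, then trp1-1, ura3-1, ade2-1 and can1-100, as well as tor1-1, fpr::NAT and bar1. The constructs HIS3::REV1pr-tetR-mCherry-REV1pr-LacI-GFP and ADE2::REV1pr-LacI-REV1pr-tetR express proteins that bind a LacO array at 497047 and a TetO array at 834487 on chromosome XV, both outside the end windows. The can1-100 allele lies in CAN1, the arginine permease gene, which is within the left end of V. The other 4 labelled samples were not analysed here.

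In yeast, centromeres are held at the spindle pole body and chromosome arms extend away from it, which is the Rabl configuration. Telomeres gather in a few clusters at the nuclear envelope, so that ends of different chromosomes meet, and ends of arms of like length are known to meet more often. Just inside the telomere repeats lie the subtelomeres, made of X elements and, at some ends, longer Y′ elements with a helicase gene, followed by gene families that are copied among ends, such as PAU, COS, FLO and HXT. For the 2 ends of one chromosome there is a further link, because they are joined by the chromosome itself.

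Sequences that mark these ends were read from the R64 reference (the sacCer3 assembly). XI is shown because it is annotated with no Y′ element at either end and has values in its outermost bins. Its outermost 60 bases are given in the orientation of the reference, XIL at chrXI:1-60 and XIR at chrXI:666757-666816. The capitals mark matches to CCACACCC at the left end (4 matches) and to its reverse complement GGGTGTGG at the right end (3 matches, of which the last 2 overlap).
XIL: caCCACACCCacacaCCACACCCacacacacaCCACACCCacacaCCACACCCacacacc
XIR: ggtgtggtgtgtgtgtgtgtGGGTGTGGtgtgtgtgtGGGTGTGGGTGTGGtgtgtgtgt
The second kind is a flocculin repeat on chromosome I, shown because it lies in the bin pair with the highest own-end signal. FLO9 at IL and FLO1 at IR encode cell wall proteins of flocculation. The longest exact run that their bins share is 817 bases, at chrI:26322-27138 and, on the other strand, at chrI:204233-205049. Its first 200 bases (to position 26521) hold no GATC, the site that the enzyme cuts.
FLO9/FLO1 run: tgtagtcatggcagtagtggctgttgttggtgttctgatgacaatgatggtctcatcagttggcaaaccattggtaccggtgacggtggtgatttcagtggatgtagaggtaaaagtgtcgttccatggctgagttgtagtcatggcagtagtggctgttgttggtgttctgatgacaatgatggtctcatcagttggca
The third kind is a Y′ copy shared by the 2 ends of V, in YEL077C at VL and in YRF1-2, a Y′ helicase gene, at VR. The run is 457 bases long, at chrV:3568-4024 and, on the other strand, at chrV:572936-573392. The first 200 bases (to position 3767) are given with the 1 GATC site in capitals.
VL/VR Y′ run: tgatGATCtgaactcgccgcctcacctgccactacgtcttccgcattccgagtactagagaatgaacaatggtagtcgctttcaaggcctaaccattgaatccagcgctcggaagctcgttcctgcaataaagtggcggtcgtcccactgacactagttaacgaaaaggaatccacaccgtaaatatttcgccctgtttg
A read that falls inside such a run cannot be assigned to 1 of the 2 ends, so bin pairs that share at least 1 run of 50 bases were counted. Of the 322 own bin pairs, 7 did, on 6 chromosomes, and I was the only chromosome among those called below that had any. Positions are those of the reference; whether the subtelomeres of yMD291 are arranged in the same way was not tested.

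The maps held 3760159 and 3518507 contacts in replicates 1 and 2, with values in 1197 of 1225 bins and a mean of 1.52 and 1.41 contacts per bin pair between chromosomes. The deposited values are ICE-balanced signals, contacts divided by a factor for each bin, and whole contacts were recovered from them. Between the replicates, the chi-square per degree of freedom was 1.00 over 548386 single bin pairs of different chromosomes and 2.24 over the totals of 1195 bins. The first value shows no spread beyond sampling noise, but pairs with so few contacts can show little of it. Bin totals varied by more than sampling noise. The replicates were therefore kept as n = 2, and their SD may be technical. Counting intervals and tests below cover counting error only, and the intervals leave out that of the expected contacts.

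Own ends met more often than ends of different chromosomes when all contacts were summed. The 322 own bin pairs held 1140 contacts in replicate 1 and 1057 in replicate 2, where 529 and 480 were expected from the rate at which the same left-end bins met the ends of other chromosomes. The contact ratio (contacts over those expected) was 2.15 in replicate 1 and 2.20 in replicate 2. No contact was found in 22.7% and 22.0% of own bin pairs, against 28.1% and 31.0% of pairs with ends of other chromosomes.

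The excess was uneven. The mean balanced signal of own ends over that of the same bins with other ends averaged 3.28 ± 0.26 over the 15 chromosomes (SD of 2 maps), but 1.42 ± 0.12 without chromosome I, and the median chromosome had 1.28 ± 0.03. The balanced ratio was above 1 in both maps on 7 chromosomes and below 1 in both on 5. Balancing magnifies bins with few contacts, so the contact ratio is given beside it. Its mean was 2.09 ± 0.03 and its median 1.33 ± 0.06, and it was above 1 in both maps on 9 chromosomes and below 1 in both on 2.

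Each left end was then tested against its own right end and against each of the 30 ends of other chromosomes with the same rule, an exact conditional Poisson test with Benjamini-Hochberg adjustment over all 465 pairs of a map, called at an adjusted p under 0.05 in the same direction in both maps. The own right end was called higher on 6 of the 15 chromosomes, I, VI, VII, X, XI and XVI, and lower on none. At an unadjusted p under 0.05 the same test gave 7 higher in both maps. Among the 450 pairs with ends of other chromosomes, 36 (8%) were called higher and 65 (14.4%) lower. The plot of each left end with its own right end and with ends of other chromosomes shows the spread against which these calls were made.

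**Figure D1:**
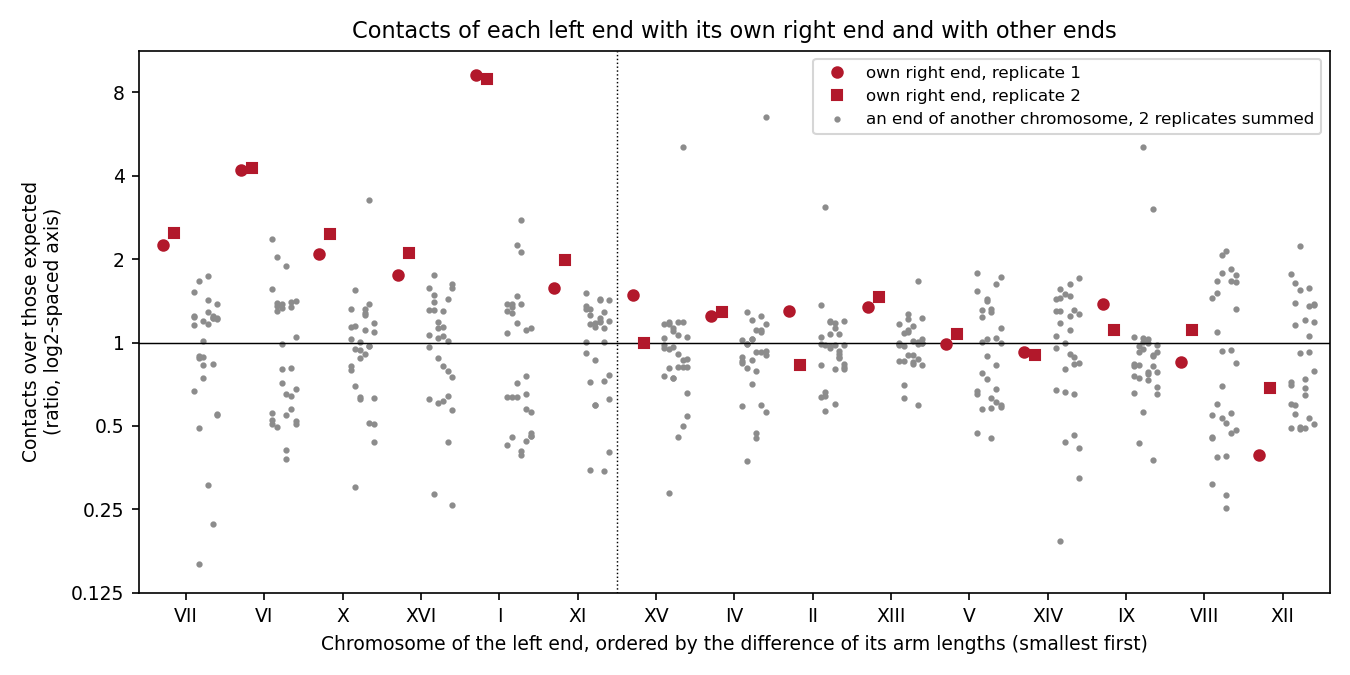
Contacts over those expected (log2-spaced axis) of each left end with its own right end (red, 1 point per replicate) and with each end of another chromosome (grey, both replicates summed), chromosomes ordered from the smallest to the largest difference between their arm lengths. Both red points lay above all grey points of their column on I, VI, VII, XI and XVI, and the dotted line separates the 6 chromosomes whose arms differ by less than a factor of 2 from the other 9.

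Chromosome I, the shortest at 230 kb, had the strongest own-end contact. Its left end met its right end 283 times in replicate 1 and 259 times in replicate 2, against 30.7 and 29.0 expected from other ends, a contact ratio of 9.08 (95% interval 8.33 to 9.87, maps summed). The mean balanced signal was 91.4 and 107 with the own end, against 3.60 and 3.23 with other ends. The own end held first place among the 31 ends in both maps (exact conditional Poisson test, adjusted p 1.07e-154 and 1.51e-138). Places here and below rank the ends by contact ratio unless balanced signal is named. Only 3 of the 6 bins of IR had values, those farthest from the telomere, so the stretch with PHO11 (acid phosphatase) was not measured.

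The 5 highest own bin pairs by balanced signal, among those with at least 3 contacts in each map, all lay on I. The highest joined the FLO9 bin (chrI:20001-30000) to the FLO1 bin (chrI:200001-210000), with 41 and 61 contacts and a balanced signal of 875 and 1211. These bins share 1558 words of 50 bases, and the FLO1 bin had a low balancing factor, 0.069 in replicate 1, which scales its contacts up in the balanced signal. The second joined chrI:10001-20000 to the same FLO1 bin, with 8 and 7 contacts, and shares 172 words. The third joined the FLO9 bin to chrI:190001-200000, which holds YAT1 (carnitine acetyltransferase) and SWH1 (an oxysterol-binding protein homologue), and shares none, yet it held 49 and 34 contacts at a balanced signal of 68.6 and 44.5. The fourth joined chrI:10001-20000 to the same YAT1 bin with 26 and 34 contacts, and the fifth joined it to chrI:180001-190000, with UIP3, PRM9 and MST28 (membrane proteins of a local gene family), with 26 and 18 contacts, and neither shares any. Without the bin pairs that share words, chromosome I kept 425 contacts where 55.3 were expected, a contact ratio of 7.68 (6.97 to 8.45), and its balanced ratio was 7.26 and 6.16 in place of 25.4 and 33.2.

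Chromosome VI, the next shortest here at 270 kb, held 275 and 264 own-end contacts, against 65.8 and 61.7 expected, a contact ratio of 4.23 (3.88 to 4.60). VIL carries COS4 and the vitamin gene cluster of SNO3, SNZ3 and THI5, and VIR starts no gene of the families searched. No word of 50 bases was shared by valued bins of these ends. The own end held first place in both maps (exact conditional Poisson test, adjusted p 1.74e-73 and 3.19e-72). By balanced signal it took place 2 in both maps.

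The other 4 called chromosomes were between 667 and 1091 kb long, so that their ends are far apart along the DNA. VII, at 1091 kb, held 67 and 65 own-end contacts against 29.9 and 26.1 expected, a ratio of 2.36 (1.97 to 2.79), with first place in both maps (exact test, adjusted p 2.12e-07 and 9.98e-09). VIIL carries COS12 and PAU11, both in a bin with no value, and VIIR carries the MAL11, MAL12 and MAL13 genes of maltose use, PAU12, COS6 and a Y′ element. X held 44 and 46 contacts against 21.2 and 18.7 expected, a ratio of 2.26 (1.81 to 2.77; exact test, adjusted p 0.000176 and 3.60e-06). XL carries the hexose transporter genes HXT8 and HXT9, and XR carries the cell wall genes DAN1 and DAN4, and HXT16 in a bin with no value. XR took second place in both maps, behind IXL, which met XL 73 and 67 times, with 1 bin pair that shares words. The balanced ratio of X, 3.93 in replicate 1 and 1.97 in replicate 2, differed more between maps than its contacts did. A bin pair picked out after its value was seen, chrX:10001-20000 with chrX:740001-745751, held 1 contact at a signal of 194 in replicate 1 and 0 contacts in replicate 2. The balanced ratio of X was 1.19 with ends from 10 to 50 kb and 4.97 with ends of 30 kb. With ends of 30 kb, X, VII and XVI were not called.

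XVI held 54 and 57 own-end contacts against 30.7 and 27.1 expected, a ratio of 1.92 (1.58 to 2.31), with first place in both maps (exact test, adjusted p 0.00138 and 1.59e-05). By balanced signal its own end took place 2 in replicate 1 and place 1 in replicate 2. The outermost bins of XVI share 3833 words of 50 bases, but the outermost XVIL bin has no value. No pair counted here therefore shares any. XI held 60 and 63 contacts against 38.1 and 31.9 expected, a ratio of 1.76 (1.46 to 2.10), in second and first place (exact test, adjusted p 0.00669 and 2.60e-05). By balanced signal XIR took place 4 in replicate 1 and place 1 in replicate 2. XIL carries PAU16 and COS9, and XIR carries the flocculin gene FLO10. With the right end as the base, which asks how XIR met other ends, XI was not called (ratio 1.44, 1.19 to 1.71), while the other 5 were.

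At the low end stood XII, whose right arm carries the ribosomal RNA gene array. XIIL met XIIR 11 times in replicate 1 and 17 times in replicate 2, against 27.9 and 24.8 expected, a contact ratio of 0.53 (0.35 to 0.77). The own end took place 31 of 31 in replicate 1 and place 20 in replicate 2, and it was not called, as the adjusted p of the exact test was 0.0035 in replicate 1 and 0.299 in replicate 2. Chromosome XIV, with the YRF1-6 end at XIVL and the biotin genes BIO3, BIO4 and BIO5 at XIVR, held 20 and 18 contacts against 21.6 and 19.9 expected, a ratio of 0.92 (0.65 to 1.26). Chromosome II held 67 and 38 contacts against 51.5 and 45.7 expected, a ratio of 1.08 (0.88 to 1.31), on opposite sides of 1 in the 2 maps. By balanced signal these were the 3 lowest chromosomes, at 0.41 ± 0.14 for XII, 0.54 ± 0.10 for XIV and 0.71 ± 0.33 for II (SD of 2 maps).

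The remaining 6 chromosomes lay between these groups. XIII had a contact ratio of 1.40 (1.16 to 1.68) and IX one of 1.25 (1.01 to 1.53), with intervals above 1, but neither was called. By balanced signal XIII had 1.36 ± 0.08, whereas IX had 0.74 ± 0.17 and was below 1 in both maps, so that the direction for IX turned with the measure. IV (1.27, 0.98 to 1.62), XV (1.25, 0.99 to 1.57), V (1.03, 0.83 to 1.26) and VIII (0.98, 0.71 to 1.31) had intervals that hold 1. By contact ratio, the own right end was among the first 4 of 31 places in both maps on 9 of the 15 chromosomes. IV was among these, but by balanced signal it took place 14 in replicate 1 and place 5 in replicate 2. Across the 15 chromosomes the log2 contact ratios of the 2 maps followed each other with r = 0.94 and rho = 0.87, and the largest difference between maps was 0.80 (log2) on XII.

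In rank, the order of the chromosomes followed the balance of their arms more closely than their length. The 6 called chromosomes were the 6 whose arms differ by less than a factor of 2, a boundary chosen after these values were seen. In absolute log2 ratio their arm lengths differed by 0.26 on VII, 0.29 on VI, 0.50 on X, 0.50 on XVI, 0.95 on I and 0.96 on XI, whereas the other 9 differed by 1.23 (XV) to 2.62 (XII). Over the 15 chromosomes the rank correlation of the balanced ratio with this difference was -0.89 in replicate 1 and -0.79 in replicate 2. With chromosome length it was -0.26 in both maps, and 0.10 and 0.13 without I and VI, while that with the arm difference was -0.90 and -0.74 without them. For the log2 contact ratio, Pearson's r with the arm difference was -0.72 and -0.70, and -0.62 and -0.65 without VII and XII, the chromosomes farthest from the median; with length it was -0.49 in both maps, and -0.34 and -0.32 without I and IV. For the balanced ratio, in which I is far above the rest, Pearson's r ran the other way, at -0.26 and -0.19 with the arm difference and -0.48 and -0.46 with length. These are descriptions over chromosomes of 1 strain that share libraries.

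Ends of different chromosomes followed their arms in the same way, so the own ends were read against ends of the same arm class. The boundary was set with the own-end values known. The own-end medians below are thus of chromosomes sorted by their calls, and those of other ends are not. In the 6 chromosomes with arms within a factor of 2 the median own-end contact ratio was 2.31, against 1.19 in the 231 pairs with other ends of that class, of which 33 (14.3%) were called higher and 0 lower. In the 9 with arms more than a factor of 2 apart the median was 1.08, against 0.65 in the 219 pairs with other ends of that class, of which 3 (1.37%) were called higher and 65 (29.7%) lower. In this second class every own end but that of XII lay above the median for other ends of such unequal arms. Pairs with other ends that were called higher shared sequence more often than all such pairs. Of the 36 pairs with other ends called higher, 26 share words of 50 bases, against 189 of all 450. Without bin pairs that share words, 30 of 450 (6.67%) were called higher, and own ends were called on the same 6 chromosomes.

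**Figure D2:**
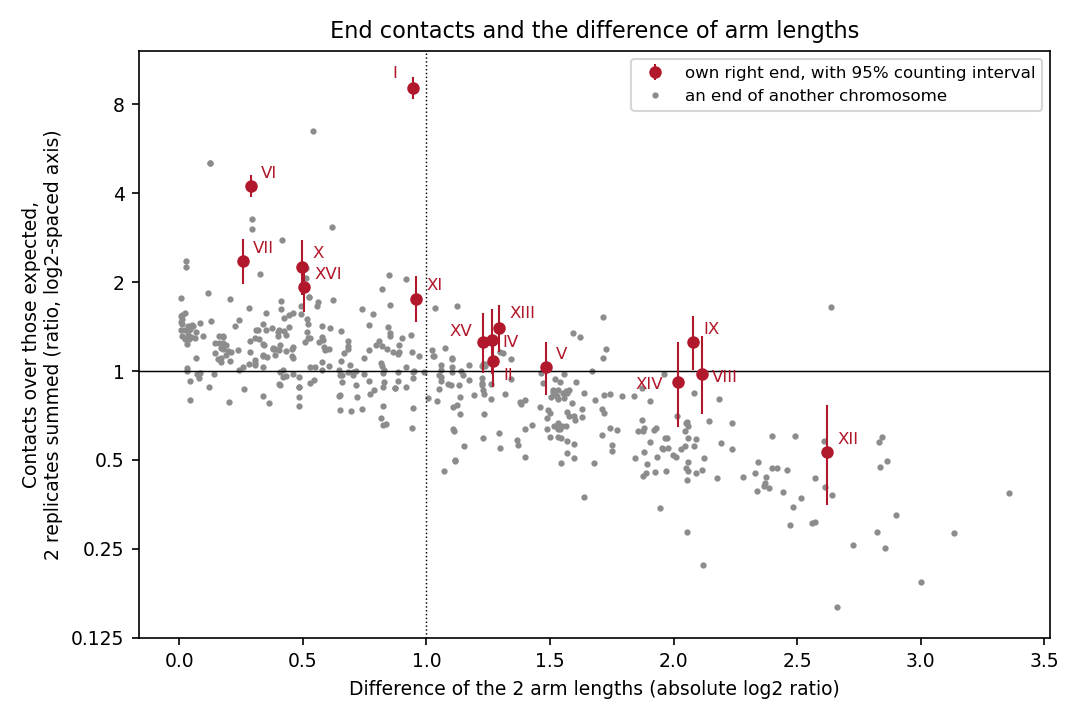
Contacts over those expected (log2-spaced axis, both replicates summed) against the absolute log2 ratio of the 2 arm lengths, for own ends (red, with 95% counting intervals) and for ends of other chromosomes (grey). Both fell with the difference of arm lengths, and the dotted line marks a factor of 2, left of which lay the 6 called chromosomes.

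To match arms more closely, each own end was set against the ends of other chromosomes whose arm length is within 25% of the own right arm (1 to 9 ends per chromosome). The contact ratio over such ends had an interval above 1 on 14 of the 15 chromosomes and holding 1 on the other, XII (0.95, 0.63 to 1.37). On XIV, II and XV the lower limit was close to 1, at 1.004, 1.01 and 1.06. The median balanced ratio was 1.61 ± 0.21 (SD of 2 maps). Chromosome I kept a ratio of 4.48 (4.12 to 4.88), although only IXR was a like end, and VI one of 2.57 (2.36 to 2.80) over 4 ends. VII had 1.98 (1.65 to 2.34) over 6 ends, and none of those ends exceeded the own end in either map. Single like ends did exceed the own end on other chromosomes. For X, IXL did so in both maps, at 3.23 and 3.30 against 2.08 and 2.46 for the own end, and the balanced ratio of X over its like-arm ends was 1.30 in replicate 1 and 0.47 in replicate 2. For II, 6 of 9 like ends were above the own end in replicate 2 and 0 in replicate 1, for V 2 of 8 were in replicate 2, and for IV the only like end was in replicate 1. XII and XV also had like ends above the own end in at least 1 map. Chromosomes that were not called against all ends were above their like-arm ends too, such as VIII (1.93, 1.41 to 2.58, over 8 ends) and IX (2.82, 2.28 to 3.46, over IR alone). These intervals do not include the spread among the like ends, which for XVI ran up to 2.05 in replicate 2, close to its own end at 2.10. They also take the expected contacts as fixed, so that counting error of the like ends is left out. With 1 like end the reference could differ widely between maps. IXL met IR at 0.63 in replicate 1 and 0.23 in replicate 2, and IVL met XIIR at 1.30 and 0.27.

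Contact also falls with distance along the chromosome, and the own ends were set against bin pairs of the same separation that lie away from the ends of other, longer chromosomes. This could be done on 14 chromosomes, as none is longer than IV, and for VII, XII and XV the reference was IV alone. The interval was above 1 on 9 chromosomes, held 1 on 5 and was below 1 on 0, and the median contact ratio was 1.71 ± 0.0079 (SD of 2 maps). For I it was 3.61 (3.31 to 3.92), for VII 3.35 (2.80 to 3.97), for X 2.62 (2.10 to 3.22), for XVI 2.28 (1.88 to 2.75) and for VI 2.28 (2.09 to 2.48). Of 696 windows of the same size and separation, 0 reached the value of I in either map, and 7 and 4 of 644 windows reached that of VI. For VII, X and XVI fewer contacts were expected from interior pairs (39.5, 34.4 and 48.6) than from other ends (56.0, 39.9 and 57.8). Own ends above other ends there lay above interior pairs too, so that this comparison adds no separate support. Of the chromosomes not called, II (1.36, 1.11 to 1.64), XIII (1.87, 1.55 to 2.25) and XV (2.02, 1.59 to 2.53) were also above interior pairs. For XII the ratio was 0.91 (0.60 to 1.31).

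**Figure D3:**
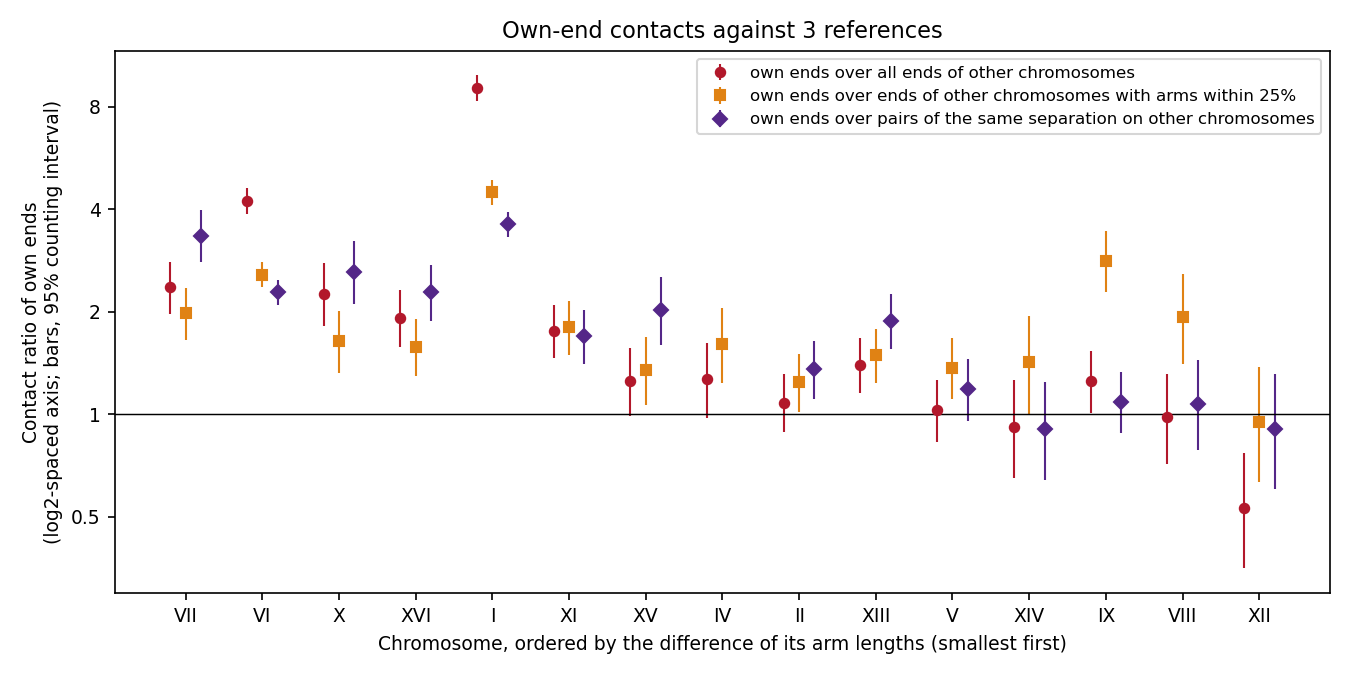
Contact ratio of own ends (log2-spaced axis, both replicates summed, bars are 95% counting intervals) over all ends of other chromosomes, over ends of other chromosomes with arms within 25%, and over pairs of the same separation on other chromosomes, with chromosomes ordered by the difference of their arm lengths. XII alone lay below 1 by all 3, and its interval was wholly below 1 only against all other ends.

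Over the 13 chromosomes without I and VI, contacts of left ends fell with distance from the right end on own and on other right arms. The own right arm had ratios of 1.36, 1.01 and 0.95 at 0 to 50, 50 to 100 and 100 to 150 kb. Other right arms had 0.98, 0.72 and 0.67. VII, X, XI and XVI were picked by their calls in the last 50 kb, so that a high value there was built in. For VII, X, XI and XVI together, the left end met the last 50 kb of its own right arm at a ratio of 2.04 (1.86 to 2.23), the stretch 50 to 100 kb from the end at 1.45 (1.32 to 1.59), and that 100 to 150 kb from it at 1.27 (1.15 to 1.40). On right arms of other chromosomes the same left ends had 1.01, 0.76 and 0.70 at these distances. On XVI alone the third stretch was above the second, with 1.92, 1.53 and 1.68. In the 9 chromosomes with unequal arms together, the own right arm had 1.10, 0.85 and 0.82, against 0.96, 0.70 and 0.66 on other right arms. Among them, XII and XIV were lower on their own right arm than on others at all 3 distances. XII had 0.53, 0.45 and 0.36, against 0.95, 0.68 and 0.69. XIV had 0.92, 0.57 and 0.29, against 1.09, 0.85 and 0.79. On I and VI the stretch 100 to 150 kb from the right end comes close to the left end along the DNA, and they are left out of this comparison.

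**Figure D4:**
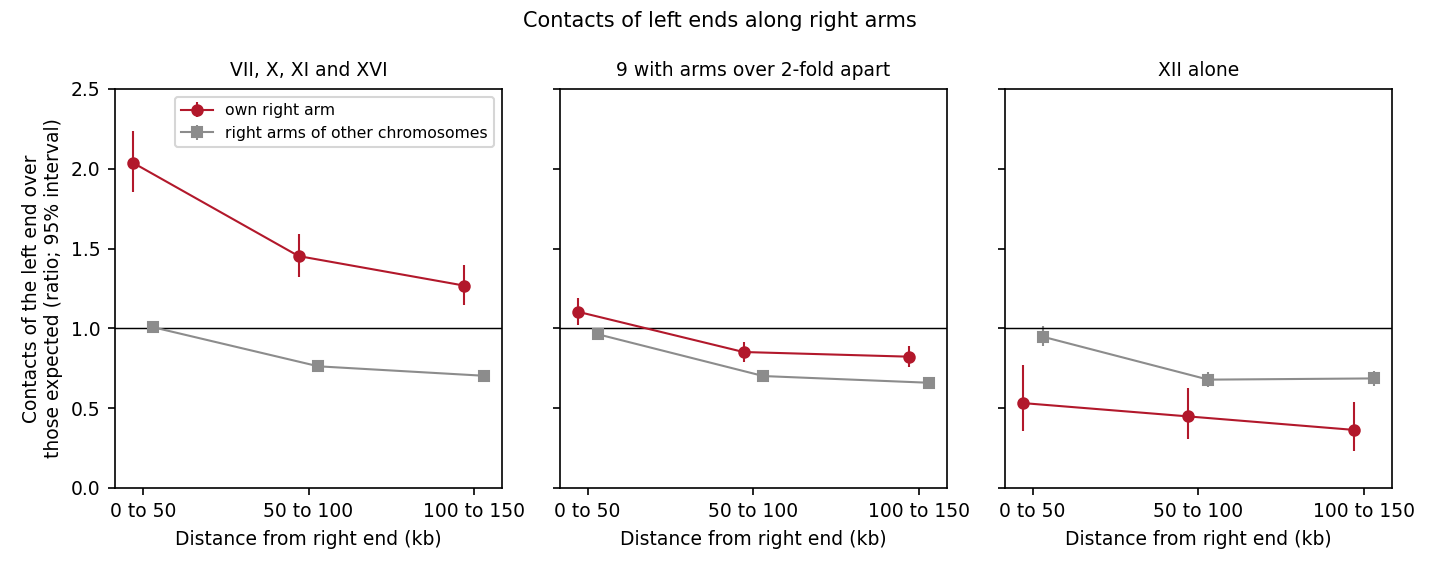
Contacts of left ends over those expected (linear axis, both replicates summed, bars are 95% counting intervals) with 3 stretches of the own right arm (red) and of right arms of other chromosomes (grey), by distance from the right end in kb. For VII, X, XI and XVI together and for the 9 chromosomes with unequal arms together red lay above grey, and for XII it lay below. XIV, not drawn alone, was also lower on its own right arm.

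Within the end windows, the excess did not sit at the outermost bins. Own bin pairs with both bins within 20 kb of their ends had a contact ratio of 1.19 (1.01 to 1.39, 40 pairs), those with 1 bin within 20 kb had 2.07 (1.93 to 2.22, 147 pairs) and those with both bins 20 to 50 kb from the ends had 2.49 (2.35 to 2.63, 135 pairs). Much of this order came from I and VI, as on VII, X, XI and XVI the 3 ratios were 1.96, 1.94 and 2.13. In the 9 chromosomes with unequal arms the outermost pairs had 0.71 (0.54 to 0.92, 25 pairs). The part of bins with no value and of shared sequence in this order was not tested.

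By annotated telomere class, contact was lower with more Y′ ends, over few chromosomes and with wide ranges. In every class the called chromosomes were those with arms within a factor of 2. In the classes that hold both kinds of arms, the calls thus divided by arm balance, whose boundary was chosen with the calls known. Whether telomere class adds to arm balance was not tested. Both chromosomes with no Y′ element at either end, I and XI, were called, with contact ratios of 9.08 and 1.76 (median 5.42). Of the 9 with Y′ at one end 3 were called (VI, VII and X), with a median contact ratio of 1.27 (0.92 to 4.23), and of the 4 with Y′ at both ends (V, VIII, XII and XVI) 1 was called, XVI, with a median of 1.00 (0.53 to 1.92).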

How the data were processed

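Hi-C contact maps of 2 replicates of yMD291 without methionine were used; the other 4 labelled samples were not analysed here. Per the labels, the authors mapped reads with HiC-Pro to sacCer3; read filters and iterations: not given in the sources used here. The deposited values are a balanced signal per pair of 10 kb bins, corrected within each library by the authors (ICE) and not scaled between libraries. The deposited bin list gave bin starts and ends.

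A factor was found for each bin so that signal times both factors was whole (all 493701 and 477591 listed values within 0.01), which gave contacts. A pair of valued bins with no listed value was taken as 0. Expected contacts were the rate per product of factors over other ends times that product over own ends. Intervals are exact Poisson 95% intervals of the observed contacts, with the expected contacts taken as fixed. Calls used an exact conditional Poisson test with Benjamini-Hochberg adjustment. The test was checked on contacts simulated at a single rate for all other ends. That check therefore does not cover differences among other ends by arm length or shared sequence. Arm lengths came from RefSeq centromeres, and sequences and gene starts from the R64 RefSeq reference. Full values were given for the 5 highest and 3 lowest chromosomes by balanced ratio and for the 5 highest bin pairs with at least 3 contacts per map, and genes were named by subtelomeric family. Members, lists and rules were chosen with earlier results of these data known. The 2 maps are labelled replicates and their p-values measure counting error, so that any spread between cultures is not in them. Alternatives were other end widths, bin filters, bases and references. Python 3.11.15, NumPy 2.4.6 and SciPy 1.17.1 were used.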

Additional observations from a re-analysis of the deposited data

How the results depend on the processing

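The same 6 chromosomes were called with bins that have values for at least 0.5 of their partners, without bin pairs that share 50-base words, with both of these together (added after seeing the data), with a balance on contacts between chromosomes, with bins wholly within 50 kb, without the ends of III and at an adjusted p under 0.01. Ends of 30 kb gave 3 calls, without VII, X and XVI, and fewer bin pairs entered. XI was lost with ends from 10 to 50 kb and with the right end as base (5 calls each), and XIII was gained with right ends only. The balanced ratio of the called chromosomes was above 1 in 72 of 72 values over 12 alternatives. They were called as higher on the same contacts, so that values above 1 were largely built in. Without replicate 1 the calls were 7, with XIII added, and without replicate 2 they were 8, with XV added as higher and XII as lower.

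The mean balanced ratio of the 15 chromosomes, 3.28, moved with the choice of bins and with the way chromosomes were averaged. It was 1.91 with bins that have values for at least 0.5 of their partners, 1.89 without shared words, 2.09 from contact sums, 6.26 for ends of 30 kb, 4.60 from 10 to 50 kb, 3.98 for bins wholly within 50 kb, 3.57 with right-end bins as base, 2.16 from medians of bin pairs, 1.28 as the median of chromosomes and 1.42 without I (added after seeing the data). The cause was not tested. The ratio of I ran between 6.71 without shared words and 75.6 for ends of 30 kb, and that of VI reached 5.58 with right-end bins as base. XIV was 0.54, against 1.00 with the partner filter, and IX was 0.74, against 1.61 with right ends only. Between the maps it was 3.09 without replicate 2 and 3.46 without replicate 1. Chromosomes with a ratio above 1 in both maps numbered 11 from 10 to 50 kb. Over like-arm ends the median was 1.34 for ends of 30 kb.

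Over pairs of the same separation the median balanced ratio, 1.87 ± 0.06 (SD of 2 maps), was 1.62 with the partner filter, 2.56 for 30 kb, 1.68 from 10 to 50 kb, 1.95 for whole bins, 1.72 for opposite arms and, added after seeing the data, 1.71 from contacts and 1.71 without XII as reference. The rank correlation with chromosome length was -0.15, -0.25, -0.29, -0.17, -0.29, -0.13, -0.25, -0.27 and -0.39 with the partner filter, without shared words, from contacts, with the balance between chromosomes, for 30 kb, from 10 to 50 kb, for whole bins, with the right base and with right ends only. That with the difference of arm lengths was -0.76 with right ends only (also added). No paired analysis was possible because both maps belong to 1 group. Depth limits single bin pairs, which held 1.52 and 1.41 contacts on average between chromosomes, and a call lost with fewer bins does not show equal contact.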
